A study of Mus musculus with 11 samples.

Results

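The collagen genes described here are Col1a1, Col1a2, Col3a1, Col5a1, Col5a2, Col11a1, Col6a1 and Col6a2. They were read through every probe set whose platform annotation gives 1 of these symbols and no other, which gave 14 probe sets for 8 genes, of 10833 probe sets with 1 symbol, for 8251 genes, and 12488 on the chip. All 14 passed the filter on dim probe sets. The data are 11 arrays of the mouse chip MG_U74Av2 from Affymetrix, which reads a transcript with a set of short probes. The samples were the embryonic stem cell line R1, kept undifferentiated on feeder cells, which were mouse embryonic fibroblasts (Undiff, replicates 1, 5 and 9), R1 cells differentiated towards nestin-positive cells for 4+8 days (replicates 1, 2 and 3) or 4+11 days (replicates 4, 8 and 12), and the feeder fibroblasts themselves (replicates 6 and 10). The labels name no genotype, treatment or sorting step for any group. They describe triplicate, independently grown cultures of a single stem cell line. For the pair of feeder arrays no separate cultures are named, so the feeder p-values measure a spread between arrays that may be technical. Feeder replicate 10 carries the stem cell line as its source name and the feeder layer in its title, and the title was used.

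Collagens are secreted proteins whose chains wind into a triple helix. Types I and III form the bulk of the fibrils that give connective tissue its strength. Types V and XI are minor fibrillar collagens that are built into those fibrils and control how they start and how thick they become. Type VI is not a classic fibril former: it assembles into beaded microfilaments around cells and beside the fibrils, so the name fibrillar and fibril-associated holds for it only in the second sense. Fibroblasts and other mesenchymal cells are the main producers of these chains.

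The genes lie on 6 chromosomes. Col3a1 and Col5a2 are neighbours on chromosome 1, Col6a1 and Col6a2 lie on chromosome 10, and Col5a1, Col11a1, Col1a2 and Col1a1 lie on chromosomes 2, 3, 6 and 11. RefSeq promoter windows (build GRCm38.p6, 250 bases before to 50 after a start site) were found for 6 of the 8 genes, 7 windows in all, with none matched for Col1a1 and Col5a2. The 250 bases before the start site are printed for Col1a2 and Col3a1, which were both higher at 4+8 days than in undifferentiated cells, and for Col6a1, which was not. Capitals mark the GC box (GGGCGG or CCGCCC), the CCAAT box (CCAAT or ATTGG) and the TATA box (TATAAA or TTTATA), searched on both strands.
Col1a2, chr6:4505368-4505617, + strand: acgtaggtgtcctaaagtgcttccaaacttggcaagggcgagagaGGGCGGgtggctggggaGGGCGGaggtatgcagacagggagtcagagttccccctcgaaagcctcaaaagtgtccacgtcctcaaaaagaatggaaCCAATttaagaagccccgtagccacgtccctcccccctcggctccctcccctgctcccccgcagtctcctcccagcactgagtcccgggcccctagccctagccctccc
Col3a1, chr1:45311288-45311537, + strand: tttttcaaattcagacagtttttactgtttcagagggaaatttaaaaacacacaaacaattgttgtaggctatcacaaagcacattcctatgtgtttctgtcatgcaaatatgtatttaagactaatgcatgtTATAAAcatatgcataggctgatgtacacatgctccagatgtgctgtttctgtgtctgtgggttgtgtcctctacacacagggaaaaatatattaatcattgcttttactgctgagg
Col6a1, chr10:76726045-76726294, - strand: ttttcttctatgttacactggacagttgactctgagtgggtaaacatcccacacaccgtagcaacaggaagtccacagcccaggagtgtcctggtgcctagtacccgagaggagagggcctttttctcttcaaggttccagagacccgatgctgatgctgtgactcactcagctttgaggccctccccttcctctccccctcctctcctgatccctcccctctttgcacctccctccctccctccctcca
The Col1a2 window has 62% G and C, with GC boxes at positions -205 and -188 from the start site and a CCAAT box at -109. The Col3a1 window has 35.2% G and C and holds TATAAA at -117, with no GC box. The Col6a1 window has 56% G and C, and none of the 3 motifs was found in it. Over the whole windows, a GC box was present in 5 of 7, a CCAAT box in 2 of 7 and a TATA box in 1 of 7, against 35.7%, 37.4% and 13.6% of all 32851 promoters in the table. These matches describe letters in the windows and show nothing about factor binding.

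Values are quantile-normalised probe set intensities, and each gene is first given by its brightest probe set. A call is an adjusted p below 0.05 from limma over 8940 probe sets, and log2 differences are of intensity plus 8. Intensities were not compared between the 8 collagen genes, because each probe set binds with its own strength. The sums of cell type markers add intensities of different genes, so bright probe sets weigh most in them. In RNA from whole cultures, a lower share of collagen-producing cells and less collagen RNA per cell cannot be told apart. The 4+8 day arrays were scanned in a session of their own and came from a chip lot of their own, so this group and its scan cannot be told apart. They had also been scaled differently by the authors: as deposited, the median probe set lay 0.99 higher (log2) at 4+8 days than in undifferentiated cells, and after a trimmed-mean scaling it lay 0.23 higher.

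Col1a1 encodes the first chain of type I collagen. In undifferentiated cells it read 3616, 3213 and 2106, and in feeder fibroblasts 16256 and 17256. It read 10278, 2826 and 14356 at 4+8 days and 9853, 5311 and 6747 at 4+11 days. On these normalised values every feeder array was above every other array. Replicate 2 of the 4+8 day cells lay inside the undifferentiated range and the 4+11 day arrays all lay above it. As deposited, where the 4+8 day arrays were scaled differently, their replicates 1 and 3 read 18573 and 27798. Both were above the feeder arrays, at 10658 and 9444. Col1a2, the second chain of type I collagen, read 2349, 1776 and 1362 in undifferentiated cells and 8049.7 and 9372 in feeder cells. It read 5415, 2958 and 11787 at 4+8 days and 4414, 2553 and 2221 at 4+11 days. The highest Col1a2 value of all 11 arrays was that of 4+8 day replicate 3, above both feeder arrays, and the 4+11 day arrays overlapped the undifferentiated ones.

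Col3a1 encodes the single chain of type III collagen, which accompanies type I in soft tissue. It read 1087, 1064 and 743 in undifferentiated cells, and 4699.65 and 4759 in feeder cells. At 4+8 days it read 2798, 2080.2 and 4265, and at 4+11 days 4129, 2369.6 and 2385. On the normalised values of this probe set, no differentiated array overlapped the undifferentiated ones, and none reached the feeder arrays. As deposited, 4+8 day replicate 3 read 6194, above the feeder arrays at 4634 and 4381.

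Col5a1 and Col5a2 encode the partner chains of type V collagen. Col5a1 read 310.5, 321 and 278 in undifferentiated cells and 1477 and 2098 in feeder cells. It read 674, 588 and 1439 at 4+8 days and 1383, 747 and 537 at 4+11 days. All 6 differentiated arrays were above the undifferentiated arrays and below the feeder arrays on the normalised values. As deposited, 4+8 day replicate 3 read 1810, above feeder replicate 6 at 1630. Col5a2 read 1488, 1262 and 866 in undifferentiated cells and 5911 and 5851 in feeder cells. It read 900.4, 224 and 2410.2 at 4+8 days and 1640.2, 561 and 741 at 4+11 days. The differentiated arrays lay on both sides of the undifferentiated range, and the 4+8 day values spanned 10.8-fold from lowest to highest.

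Col11a1, a chain of type XI collagen best known from cartilage, was dim outside the feeder cells. It read 40.05, 67.2 and 35.3 in undifferentiated cells and 500.1 and 329 in feeder cells. It read 90.4, 40.1 and 58.6 at 4+8 days and 112, 53.9 and 37.2 at 4+11 days. The undifferentiated and differentiated arrays overlapped close to the filter level of 33.4, and the feeder arrays stood apart from all of them.

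Col6a1 and Col6a2 encode chains of type VI collagen. Col6a1 read 969, 1070.3 and 761 in undifferentiated cells and 2665 and 2487 in feeder cells. It read 666, 441 and 1322 at 4+8 days and 1195, 1259.85 and 918 at 4+11 days. Col6a1 was highest in the feeder arrays and overlapped among the other groups. Col6a2 read 435, 423 and 406 in undifferentiated cells and 1543 and 1624 in feeder cells. It read 259, 216 and 379.5 at 4+8 days and 549.7, 495 and 405 at 4+11 days. All 4+8 day arrays were below all undifferentiated arrays and all 4+11 day arrays for Col6a2, and all were far below the feeder arrays.

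**Figure D1:**
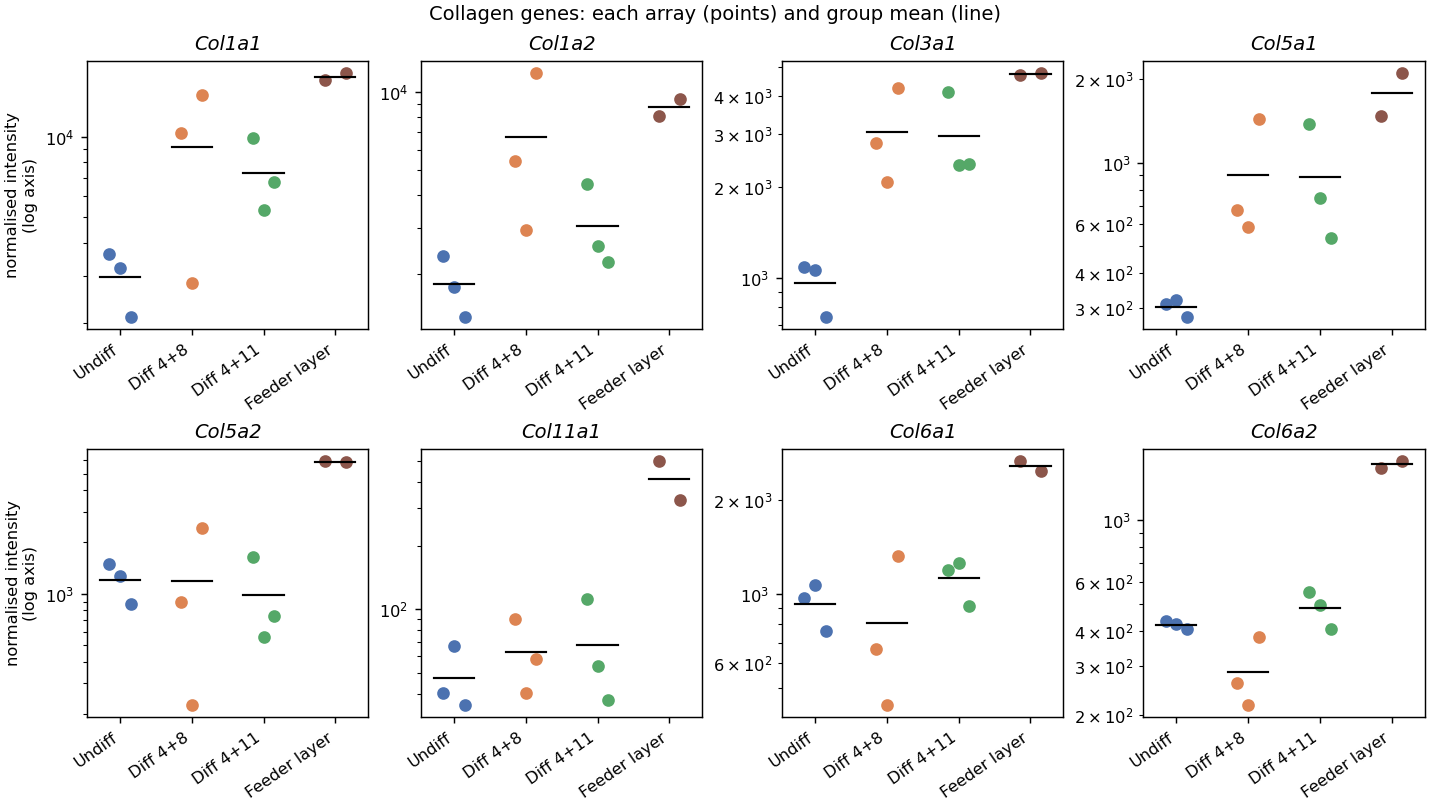
Normalised intensity of the 8 collagen genes on every array, by group; points are arrays, lines are arithmetic group means (3 arrays in each stem cell group, 2 feeder arrays), and each panel has its own log axis. The feeder arrays are highest in every panel except for Col1a2, where 4+8 day replicate 3 reads 11787.

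The order of the normalised group means was shared by Col1a1, Col1a2, Col3a1 and Col5a1, with feeder cells first, then 4+8 days, 4+11 days and undifferentiated cells. For these brightest probe sets, the neighbours 4+8 and 4+11 days differed by -0.97 to -0.01 (log2), with no call. For Col6a1 and Col6a2 the order was feeder cells, 4+11 days, undifferentiated cells and 4+8 days. Col5a2 had undifferentiated cells as its second group, and Col11a1 had 4+11 days second. These orders depended on the scaling. As deposited, 4+8 days came first for Col1a1 (16595 against 10051 in feeder cells) and Col1a2 (10767 against 6763). The places behind the feeder cells also moved for Col5a2, Col6a1, Col6a2 and Col11a1.

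Compared with undifferentiated cells, the 4+8 day cells had higher Col1a2, Col3a1 and Col5a1. Col1a2 was higher by 1.68 ± 0.46 (log2 ± SE, adjusted p = 0.0176), or 3.2-fold. Col3a1 was higher by 1.61 ± 0.31 (adjusted p = 0.00346). Col5a1 was higher by 1.43 ± 0.40 (adjusted p = 0.0184). These were 1 of the 2 chains of type I, the chain of type III and 1 of the 2 chains of type V. The call for Col1a1 was missed at a difference of 1.36 ± 0.52 (adjusted p = 0.0647). So 3 of 8 genes were called higher and 0 lower, against 17.2% of all probe sets called higher and 19.9% lower in this comparison. At an unadjusted p under 0.05, Col6a2 was the single gene on the lower side, at -0.59 ± 0.22 (adjusted p = 0.0611). The arrays did not overlap for 3 genes on the higher side and 1 on the lower, against 23.1% and 25.1% of all probe sets. Col5a2 (-0.57 ± 0.71), Col6a1 (-0.34 ± 0.35) and Col11a1 (0.34 ± 0.40) did not pass the test. The median over the 8 genes was 0.85, against 0.01 over all probe sets. Without undifferentiated replicate 9 the calls of Col1a2 (adjusted p = 0.0676) and Col5a1 (adjusted p = 0.0603) were lost and Col3a1 alone stayed called, and without 4+8 day replicate 2 Col1a1 was called (adjusted p = 0.00139). Without 4+8 day replicate 3, Col6a1 (adjusted p = 0.0407) and Col6a2 (adjusted p = 0.0110) were called lower.

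Under the scaling as deposited, Col5a2, Col6a1 and Col6a2 turned to 0.18, 0.36 and 0.19 above undifferentiated cells, which is 0.81, 0.63 and 0.80 below the median shift of all probe sets. Relative to that median, Col1a1, Col1a2, Col3a1 and Col5a1 were 1.51, 1.66, 1.44 and 1.19 higher as deposited. Col1a1 and Col11a1 were also called higher under that scaling, at adjusted p = 0.00430 and 0.00862.

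At 4+11 days, Col3a1 and Col5a1 were the genes called higher than in undifferentiated cells. Col3a1 was higher by 1.58 ± 0.31 (adjusted p = 0.00813), and Col5a1 by 1.42 ± 0.40 (adjusted p = 0.0339). This made 2 of 8 genes higher and 0 lower, against 9.22% and 9.44% of all probe sets. Col1a1 differed by 1.28 ± 0.52 (adjusted p = 0.119) and Col1a2 by 0.71 ± 0.46 (adjusted p = 0.320), neither past the threshold. Col5a2, Col6a1, Col6a2 and Col11a1 lay between -0.41 and 0.37. The median over the 8 genes was 0.54, against -0.03 over all probe sets. The arrays of 3 genes, Col1a1, Col3a1 and Col5a1, did not overlap, all on the higher side, against 22.5% of all probe sets on that side and 23.7% on the lower. The Col5a1 call was lost without any 1 of undifferentiated replicates 1, 5 or 9 or 4+11 day replicates 4 or 8, with adjusted p between 0.0563 and 0.125, and the Col3a1 call (adjusted p = 0.0632) was lost when the arrays washed under another protocol, undifferentiated replicate 9 and 4+11 day replicate 12, were left out. With the fluidics run as a block, 4 genes were called higher, Col1a1 (adjusted p = 0.0129) and Col1a2 (adjusted p = 0.0448) being added.

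The undifferentiated and 4+11 day arrays were washed in several fluidics runs, which allowed the comparison within a run. In run 1, with 1 array against 2, the 8 differences from undifferentiated cells ranged from 0.23 to 2.10, with a median of 1.05. The 4+11 day array of run 1 was replicate 4, which was the highest of its group for 7 of 8 genes. In run 2, with 1 array against 1, they ranged from -0.62, for Col5a2, to 1.66, with a median of 0.81. The undifferentiated array of run 2, replicate 9, had the other wash protocol and the 4+11 day array the common one, so run 2 mixes protocols.

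The comparison of the 2 differentiation times called 1 of 8 genes, against 12.2% of all probe sets called higher and 10.8% lower at 4+11 days. It was Col6a2, higher at 4+11 than at 4+8 days by 0.77 ± 0.22 (adjusted p = 0.0328), or 1.71-fold, with no overlap of arrays; arrays did not overlap for 18.1% of all probe sets on the higher side and 17.1% on the lower. Col6a1, its partner chain, was 0.60 ± 0.35 higher (adjusted p = 0.235). The other Col6a1 probe set, 162459_f_at, was called higher at 4+11 days, at 1.90 ± 0.44 (adjusted p = 0.0145). Col6a1 was also called higher with the mean of its probe sets (adjusted p = 0.043) and without 4+8 day replicate 3 (adjusted p = 0.0181). Col1a2 was at -0.97 ± 0.46 (adjusted p = 0.154). The other Col1a2 probe set, 161156_r_at, was called lower at 4+11 days, at -1.68 ± 0.24 (adjusted p = 0.00268). Col1a2 was also called lower with the mean of its probe sets (adjusted p = 0.0112), as deposited (adjusted p = 0.0318) and without 4+8 day replicate 2 (adjusted p = 0.0301). On their brightest probe sets, Col3a1, Col5a1, Col11a1 and Col1a1 all lay between -0.08 and 0.03. The other Col1a1 probe set, 103709_at, was at -1.44 ± 0.48 without a call (adjusted p = 0.0567). All its 4+11 day arrays were below all its 4+8 day arrays. The Col6a2 call was lost under 7 of 16 alternatives, among them the values as deposited (0.37, or 0.94 above the median of all probe sets, which moved to -0.57; adjusted p = 0.345) and the fits that left out 1 of replicates 1 and 2 at 4+8 days or of replicates 4 and 8 at 4+11 days (adjusted p = 0.0677 to 0.117).

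**Figure D2:**
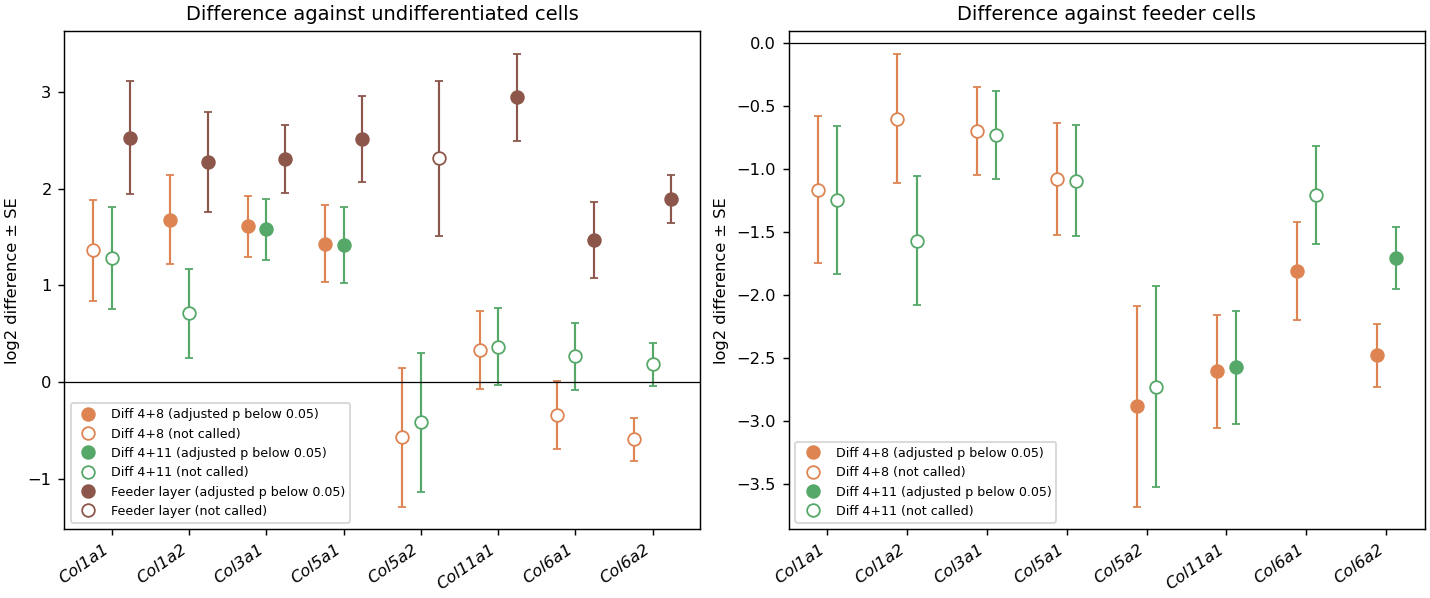
Log2 difference of each collagen gene, with its standard error from the limma fit, against undifferentiated cells (left) and against feeder cells (right); filled points have an adjusted p below 0.05. Against undifferentiated cells the feeder points lie between 1.47 and 2.94, and Col3a1 and Col5a1 are filled at both differentiation times.

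Feeder fibroblasts had more RNA of the collagens than undifferentiated cells, with 7 of 8 genes called higher and 0 lower, against 10% and 10.3% of all probe sets. Col11a1 was higher by 2.94 ± 0.45 (adjusted p = 0.00251), Col1a1 by 2.52 ± 0.59 (adjusted p = 0.0147) and Col5a1 by 2.51 ± 0.44 (adjusted p = 0.00467). Col3a1 was higher by 2.30 ± 0.35 (adjusted p = 0.00244) and Col1a2 by 2.28 ± 0.51 (adjusted p = 0.0133). The type VI chains were higher by 1.89 ± 0.25 for Col6a2 (adjusted p = 0.00127) and 1.47 ± 0.39 for Col6a1 (adjusted p = 0.0256). Col5a2 differed by 2.31 ± 0.80 and missed the threshold (adjusted p = 0.0684), and in the fit without the 4+8 day arrays it was called (adjusted p = 0.00593). All 8 genes had feeder arrays above all undifferentiated arrays, which held for 30.9% of all probe sets. The median over the 8 genes was 2.31, against -0.02 over all probe sets. Within fluidics run 1 (1 feeder array against 2) the 8 differences ranged from 1.38 to 3.08, and within run 2 (1 against 1, undifferentiated replicate 9 with the other wash protocol) from 1.70 to 3.03. Col3a1, Col6a2 and Col11a1 stayed called in each fit that left out 1 array (a lone feeder array being assumed to vary like the other groups), while 4 genes stayed called without undifferentiated replicate 9 or feeder replicate 6 and 3 without feeder replicate 10.

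Against feeder cells, the 4+8 day cells had 4 of 8 genes called lower and 0 higher, against 14.9% and 12.5% of all probe sets. Col5a2 was lower at -2.88 ± 0.80 (adjusted p = 0.0248), Col11a1 at -2.61 ± 0.45 (adjusted p = 0.00341), Col6a2 at -2.48 ± 0.25 (adjusted p = 0.000320) and Col6a1 at -1.81 ± 0.39 (adjusted p = 0.00885). On normalised values, the 4+8 day arrays lay below both feeder arrays for 7 genes, all but Col1a2, against 26% of all probe sets. They lay above them for 0, against 25%. Col1a1, Col1a2, Col3a1 and Col5a1 lay between -1.16 and -0.60 with no call; as deposited, Col1a1 and Col1a2 turned to 0.27 and 0.32, where the median of all probe sets moved to 0.56, so that relative to it they stayed lower, at -0.29 and -0.24. With either feeder array left out, the remaining one being assumed to vary like the arrays of the other groups, Col6a2 and Col11a1 stayed called and the calls of Col5a2 (adjusted p = 0.114 and 0.125) and Col6a1 (adjusted p = 0.0608 and 0.0613) were lost.

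The 4+11 day cells had 2 of 8 genes called lower than feeder cells and 0 higher, against 1.8% and 1.13% of all probe sets. They were Col11a1, at -2.57 ± 0.45 (adjusted p = 0.0140), and Col6a2, at -1.71 ± 0.25 (adjusted p = 0.00571). All 8 genes had 4+11 day arrays below both feeder arrays, against 19.6% of all probe sets, with a median of -1.41 over the 8 genes and 0.02 over all probe sets. Col5a2 was at -2.73 ± 0.80 without passing the test (adjusted p = 0.114). With either feeder array left out, where the remaining one is assumed to vary like the other groups, no gene passed it: Col6a2 had adjusted p = 0.0609 and 0.0878 and Col11a1 0.143 and 0.0878. Without the 4+8 day arrays 5 genes were called lower. Within run 1, with 1 array against 1, the 8 differences from the feeder array ranged from -2.08 to -0.09, with a median of -1.01. Within run 2, also with 1 against 1, they ranged from -3.36 to -0.98, with a median of -1.70.

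Several genes had more than 1 probe set, and these did not always move alike. At 4+8 days 7 of the 14 probe sets were called higher than in undifferentiated cells and 1 lower, at 4+11 days 4 and 0, and in feeder cells 11 and 0. The shares of all probe sets were 17.2% and 19.9%, 9.22% and 9.44%, and 10% and 10.3%. For Col3a1, all 3 probe sets were called higher in each of these comparisons, from 1.09 to 3.37 at 4+8 days, the largest value being that of 102990_at, which rose from 103, 69.4 and 67.9 to 963, 495 and 1452. On this probe set 4+8 day replicates 1 and 3 (963 and 1452) and 4+11 day replicate 4 (1149) read above both feeder arrays (823 and 724), unlike on the brightest one. Both Col5a1 probe sets had the same sign in every comparison, but the dimmer 101080_at was not called at 4+8 days (1.11 ± 0.44, adjusted p = 0.0745) or at 4+11 days (1.01 ± 0.44, adjusted p = 0.142). For Col1a1, the dimmer 103709_at was called at 4+8 days, at 1.81 ± 0.48 (adjusted p = 0.0156), where the brighter 94305_at was not. Against feeder cells at 4+8 days these probe sets parted in sign, at 0.56 and -1.16, neither called.

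The probe sets of Col1a2 and Col6a1 also disagreed. Col1a2 161156_r_at read 256, 252 and 183 in undifferentiated cells, 525, 565 and 637 at 4+8 days, 158, 157 and 209 at 4+11 days and 246 and 143 in feeder cells. It read higher at 4+8 days than on any array of the other groups. Against undifferentiated cells this probe set gave 1.30 ± 0.24 at 4+8 days (adjusted p = 0.00276) but -0.27 ± 0.27 in feeder cells, where 101130_at gave 2.28. Col6a1 162459_f_at read 370.3, 394 and 393 in undifferentiated cells and 91.7, 54.1 and 251 at 4+8 days, and was called lower there at -1.75 ± 0.44 (adjusted p = 0.0119), where 95493_at was not called. The suffixes r and f mark probe sets that Affymetrix built with relaxed rules or for families of similar sequences, so they may bind related transcripts and their readings are uncertain. With the mean of a gene's probe sets in place of the brightest, Col1a2 at 4+8 days turned to 0.49 above feeder cells (adjusted p = 0.281), and Col5a1 was no longer called at 4+11 days (adjusted p = 0.0645).

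**Figure D3:**
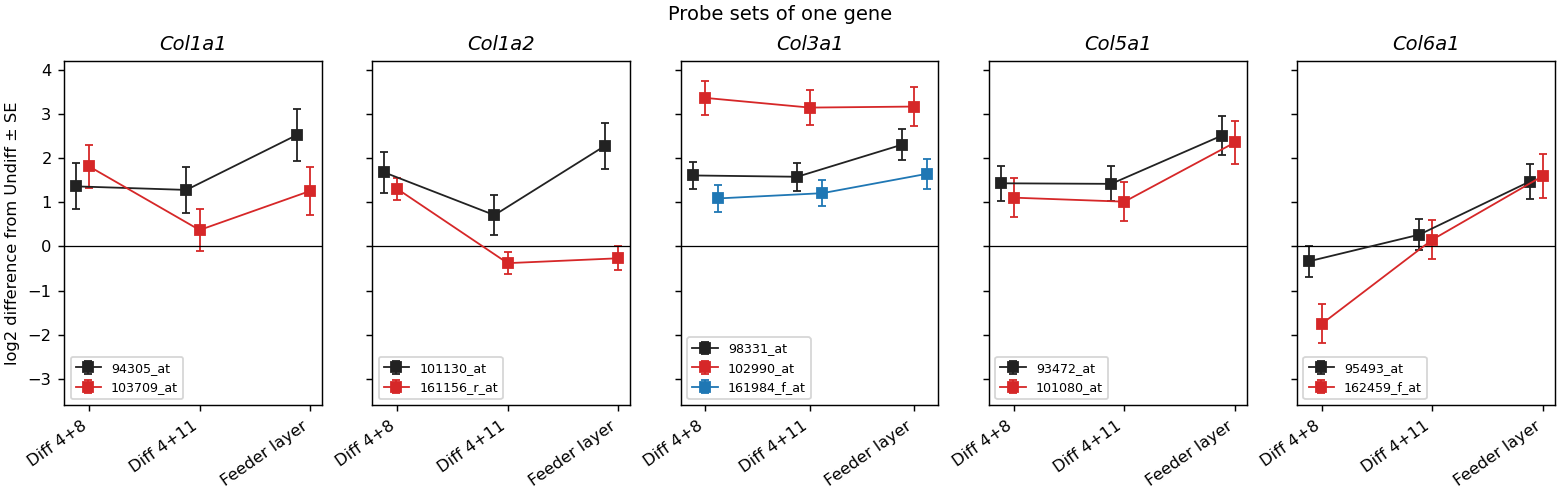
Log2 difference from undifferentiated cells, with its standard error from the limma fit, for the 5 collagen genes that have several probe sets; each colour is a probe set and lines join its values at 4+8 days, at 4+11 days and in feeder cells. The Col1a2 probe sets part in feeder cells, at 2.28 and -0.27, and the Col6a1 probe sets part at 4+8 days, at -0.34 and -1.75.

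Ratios of chains within an array nearly cancel a constant scaling factor of that array, but not the quantile normalisation used for the other values. They were formed from the deposited intensities after the values had been seen, and are given with no test. Each is a log2 ratio minus its mean over undifferentiated cells, as mean ± SD. The ratio of Col1a1 to Col1a2, whose chains combine in type I collagen, was -0.15 ± 0.64 at 4+8 days, 0.35 ± 0.25 at 4+11 days (n = 3 each) and -0.10 ± 0.11 in feeder cells (n = 2). The ratio of Col5a1 to Col5a2 was 2.0 ± 1.06 at 4+8 days, 1.87 ± 0.46 at 4+11 days and 0.50 ± 0.38 in feeder cells. All 6 differentiated arrays, from 1.22 to 3.20, were above both the undifferentiated arrays, -0.28 to 0.27, and the feeder arrays, 0.23 and 0.77. The ratio of Col6a1 to Col6a2 stayed between -0.26 and 0.62 on all differentiated arrays and was -0.35 and -0.54 on the feeder arrays. The last ratio was the mean of Col1a1, Col1a2, Col3a1 and Col5a1 over that of Col6a1 and Col6a2. It leaves out the fibrillar chains Col5a2 and Col11a1 and was chosen after their differences were seen. It was 2.17 ± 0.48 at 4+8 days, 0.92 ± 0.36 at 4+11 days and 0.39 ± 0.09 in feeder cells. These groups did not overlap on the deposited intensities, but the 4+11 day and feeder arrays overlap on the quantile-normalised ones.

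**Figure D4:**
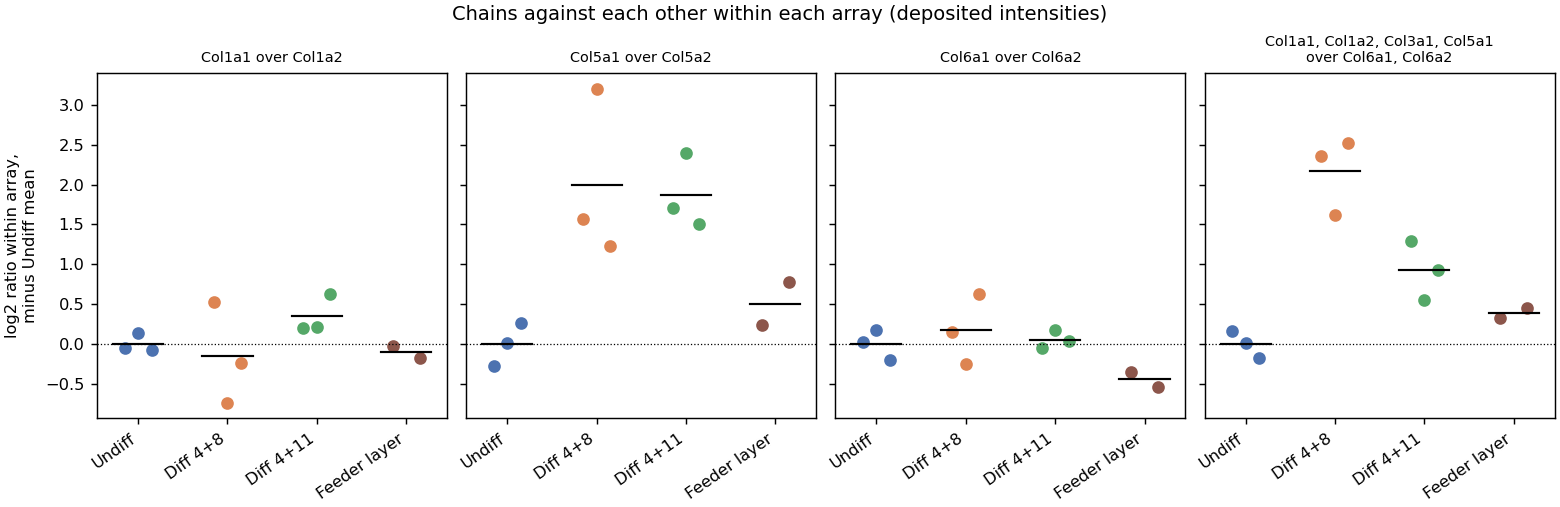
Log2 ratio between collagen chains within each array, from deposited intensities, minus the mean of the undifferentiated arrays; points are arrays and lines are group means, and the last panel sets the mean of Col1a1, Col1a2, Col3a1 and Col5a1 against the mean of the type VI chains. The Col5a1 to Col5a2 ratio is above 1.2 on all 6 differentiated arrays and below 0.8 on the others.

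Within the stem cell groups, many of the collagens ranked the arrays alike. Within the 4+8 day group, replicate 2 was lowest for 8 of 8 genes and replicate 3 highest for 7. Within the 4+11 day group, replicate 4 was highest for 7, and undifferentiated replicate 9 was lowest in its group for 8 of 8. The highest place in undifferentiated cells was split, with 5 genes on replicate 1 and 3 on replicate 5. Between the feeder arrays it was split too, with 3 genes on replicate 6 and 5 on replicate 10. At 4+8 days, the sum of neural progenitor genes ran the other way, with 3305 on replicate 2 and 348 on replicate 3. This did not hold at 4+11 days, where replicate 12 had the lowest neural sum, 636, and was lowest for 5 of 8 collagen genes. Replicate 2 also had the highest ratio of 3′ to 5′ actin signal of all 11 arrays, 2.18 against 1.47 to 1.93, and undifferentiated replicate 9 was 1 of the arrays of the other wash protocol. The part of cell makeup, RNA quality or washing in this spread was not tested. The median SD over the 8 genes on the log2 scale was 0.74 at 4+8 days, 0.49 at 4+11 days, 0.35 in undifferentiated cells and 0.07 between the feeder arrays, against 0.45, 0.26, 0.20 and 0.16 over all probe sets.

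Fibroblast markers were read beside the collagens. The summed level of 12 fibroblast genes was 8878, 8320.4 and 5729 in undifferentiated cells, 9807, 5923 and 15501 at 4+8 days, 11959, 6745 and 12548 at 4+11 days and 17499 and 22095 in feeder cells. Within the 4+8 day group the order of the replicates was the same as for Col1a1, and undifferentiated replicate 9 was lowest again. Of the 12 genes, 0 were below the filter level on every undifferentiated or feeder array, 2 were on every 4+8 day array and 1 on every 4+11 day array. The genes did not move alike. Thy1, Pdgfra, Pdgfrb, Fap, S100a4, Prrx1 and Fbln2 had lower means at 4+8 days than in undifferentiated cells, Fbln2 839 against 2243. Dcn, Lum, Fn1, Postn and Twist1 had higher ones, Postn 2517 against 764. Thy1, a surface marker of fibroblasts and of several other cells, read 653.5 to 834 in undifferentiated cells, between 6.97 and 31.8 at 4+8 days, between 109 and 484 at 4+11 days and 1116 to 2308 in feeder cells. The stem cells were grown on the feeder layer, and the part of feeder RNA in the collagen values of the undifferentiated arrays was not tested. Dcn, a small proteoglycan that coats collagen fibrils, read 816 to 1857, 384 to 4103, 1574 to 3347 and 2333 to 2849 in the same order of groups. Lum, another fibril-coating proteoglycan, ranged from 389 to 525 on the undifferentiated arrays, from 1155 to 3416 on the 4+8 day arrays, from 1485 to 2080.2 on the 4+11 day arrays and from 1259.85 to 1268 on the feeder arrays.

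Markers of other cell types differed as well. The sum of 5 heart muscle genes ranged from 226 to 269 on the undifferentiated arrays, from 5354 to 12451 on the 4+8 day arrays, from 971 to 2988 on the 4+11 day arrays and from 726 to 1536 on the feeder arrays. In feeder cells Actc1, from a probe set of suffix f, made up most of it, at 1009 ± 526 (n = 2). Myh7, Myl7, Tnnt2 and Tnnc1 averaged 11.8, 7.66, 35.7 and 67.4 there. The Myh7 probe set also has the suffix f. The sum of 4 smooth muscle genes was 679 to 984, 1798 to 3020.1, 2052 to 5509 and 10364 to 11304 in the same order. Acta2 and Tagln made up most of it in every group. Acta2 averaged 372, 1461, 2311 and 5887 and Tagln 376, 826, 1370 and 4540, in that order of groups. Cnn1 read 9.98 to 38.7 in undifferentiated cells, 34.2 to 76.1 at 4+8 days and 20.5 to 24 at 4+11 days. Myh11 averaged 12.7, 4.55 and 3.15 in these groups, below the filter level. In feeder cells Cnn1 and Myh11 averaged 321 and 85.9. Of the 4 cartilage markers on the chip, Col2a1, the main cartilage collagen, read at most 29.4 on any array, Acan at most 41.9 and Matn1 at most 12.6. The other one, Col9a1, a chain of the cartilage collagen type IX, read 211 ± 83.3 at 4+8 days against 59.8 ± 21.3 in undifferentiated cells (n = 3 each). The cartilage sum was 168 to 339.7 at 4+8 days and at most 115 on all other arrays. The sum of 6 neural progenitor genes read 4136, 3482 and 4168 in undifferentiated cells, 1145, 3305 and 348 at 4+8 days, 1445, 7577 and 636 at 4+11 days and 742 and 526 in feeder cells. Sox2, which stem cells express too, made up most of that sum in undifferentiated cells, at 3659 ± 373. Fabp7, a fatty acid binding protein of radial glia, ranged from 22.2 to 1319.75 at 4+8 days and from 31.7 to 4699.65 at 4+11 days. The 2 bone markers on the chip summed to at most 148 on any array. The sum of 7 pluripotency genes was 13891 to 15455 on the undifferentiated arrays and at most 475 on all others. The part of these cell types in the collagen results was not tested.

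The genes whose pattern over the 11 arrays was most like the mean of the 8 collagens were Copz2, a coat protein of transport vesicles, Eln, the elastin gene, Itgb5, an integrin chain, Mmp14, a membrane-bound matrix protease, and Ccn4, a matricellular protein. Their Pearson correlations with that mean were 0.975, 0.965, 0.955, 0.954 and 0.952 among 6642 genes. These values describe a likeness over arrays that fall into 4 groups, which any gene high in feeder cells shares in part. Eln read 31.1 ± 12.5 in undifferentiated cells (n = 3), 124 ± 93.4 at 4+8 days, 77.2 ± 32.1 at 4+11 days and 838 ± 304 in feeder cells (n = 2). Ccn4 read 177 ± 61.5, 504 ± 437, 568 ± 333 and 1395 ± 320.1 in the same order.

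Other genes of the collagen pathway were taken from lists. Of 15 tested genes for collagen folding, modification, export and cross-linking, 3 were called higher at 4+8 days than in undifferentiated cells and 0 lower, against 17.2% and 19.9% of all probe sets. They were P4hb, a subunit of prolyl hydroxylase (2.0 ± 0.29, adjusted p = 0.000854, from a probe set of suffix r), P4ha2, a catalytic subunit of the same enzyme (1.91 ± 0.32, adjusted p = 0.00157), and Serpinh1, the collagen chaperone (1.33 ± 0.29, adjusted p = 0.00619). Serpinh1 read 769 ± 98.2 in undifferentiated cells, 2038 ± 761 at 4+8 days, 2573 ± 449.6 at 4+11 days and 3835 ± 233 in feeder cells, with both differentiated groups and the feeder cells clear of the undifferentiated arrays. At 4+11 days 2 of the 15 were called higher and 0 lower, against 9.22% and 9.44%, namely Serpinh1 (1.72 ± 0.29, adjusted p = 0.00409) and Sec23a, part of the vesicle coat that carries procollagen (0.82 ± 0.24, adjusted p = 0.0430). Between the differentiation times, P4hb (-1.85 ± 0.29) and P4ha2 (-1.07 ± 0.32) were called lower at 4+11 days and 0 of the 15 higher, against 10.8% and 12.2%.

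In feeder cells 11 of the same 15 genes were called higher than in undifferentiated cells and 0 lower, against 10% and 10.3% of all probe sets, with a median of 1.06 against -0.02. Lox, the enzyme that starts collagen cross-linking, was higher by 3.31 ± 0.89 (adjusted p = 0.0269), Sparc, a collagen-binding matrix protein, by 2.36 ± 0.54 (adjusted p = 0.0135) and Serpinh1 by 2.31 ± 0.32 (adjusted p = 0.00171). Lox read 392 ± 58.9 in undifferentiated cells, 412 ± 489 at 4+8 days, 143 ± 95.9 at 4+11 days and 3943 ± 263 in feeder cells. At 4+8 days 7 of the 15 were called lower than in feeder cells and 1 higher, against 14.9% and 12.5% of all probe sets, and at 4+11 days 3 lower and 0 higher, against 1.8% and 1.13%. Lox, Pcolce, which enhances procollagen processing, and Bmp1, the protease that removes the procollagen tail, were called lower at both times. Their differences were -4.03 ± 0.89, -1.93 ± 0.30 and -1.70 ± 0.31 at 4+8 days and -4.89 ± 0.89, -1.95 ± 0.30 and -1.68 ± 0.31 at 4+11 days. The 1 gene called higher at 4+8 days, P4hb (1.64), was named after its value was seen.

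Of 4 tested collagen receptors and 5 tested genes for collagen breakdown, at most 2 of either list were called in any comparison, too few to set against the shares of all probe sets given above. Ddr1, a receptor kinase typical of epithelia, was called higher than in undifferentiated cells at 4+8 days (1.35 ± 0.24, adjusted p = 0.00234) and at 4+11 days (1.10 ± 0.24, adjusted p = 0.0127). Itgb1, the integrin chain shared by the collagen-binding integrins, was called higher at 4+11 days (0.78 ± 0.20, adjusted p = 0.0232, from a probe set of suffix f). Ddr2, the related kinase of mesenchymal cells, was called higher in feeder cells (1.95 ± 0.23, adjusted p = 0.000683). It was called lower than in feeder cells at 4+8 days (-2.03 ± 0.23) and at 4+11 days (-2.37 ± 0.23), reading 89.8 ± 14.3 in undifferentiated cells, 85.1 ± 21.0 at 4+8 days, 64.3 ± 3.59 at 4+11 days and 367 ± 7.80 in feeder cells. Ddr1 was higher at 4+8 days than in feeder cells (0.84 ± 0.27, adjusted p = 0.0435). Mrc2, an endocytic receptor that takes up collagen, was lower at 4+11 than at 4+8 days (-0.91 ± 0.25, adjusted p = 0.0272). Mmp13, a collagenase, was called lower than in undifferentiated cells at 4+8 days (-1.02 ± 0.34, adjusted p = 0.0401) and at 4+11 days (-1.76 ± 0.34, adjusted p = 0.00777). It was dim throughout, reading 41.9 to 85.3 in undifferentiated cells and 48.4 to 87.0 in feeder cells. At 4+8 and 4+11 days it read at most 32.5 and 17.1, below the filter level of 33.4. Mmp13 was also lower than in feeder cells, at -1.19 ± 0.38 at 4+8 days (adjusted p = 0.0444) and -1.93 ± 0.38 at 4+11 days (adjusted p = 0.0269). Mmp14 was called higher in feeder cells than in undifferentiated cells (1.90 ± 0.48, adjusted p = 0.0207) and lower at 4+8 days than in feeder cells (-1.56 ± 0.48, adjusted p = 0.0355).

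**Figure D5:**
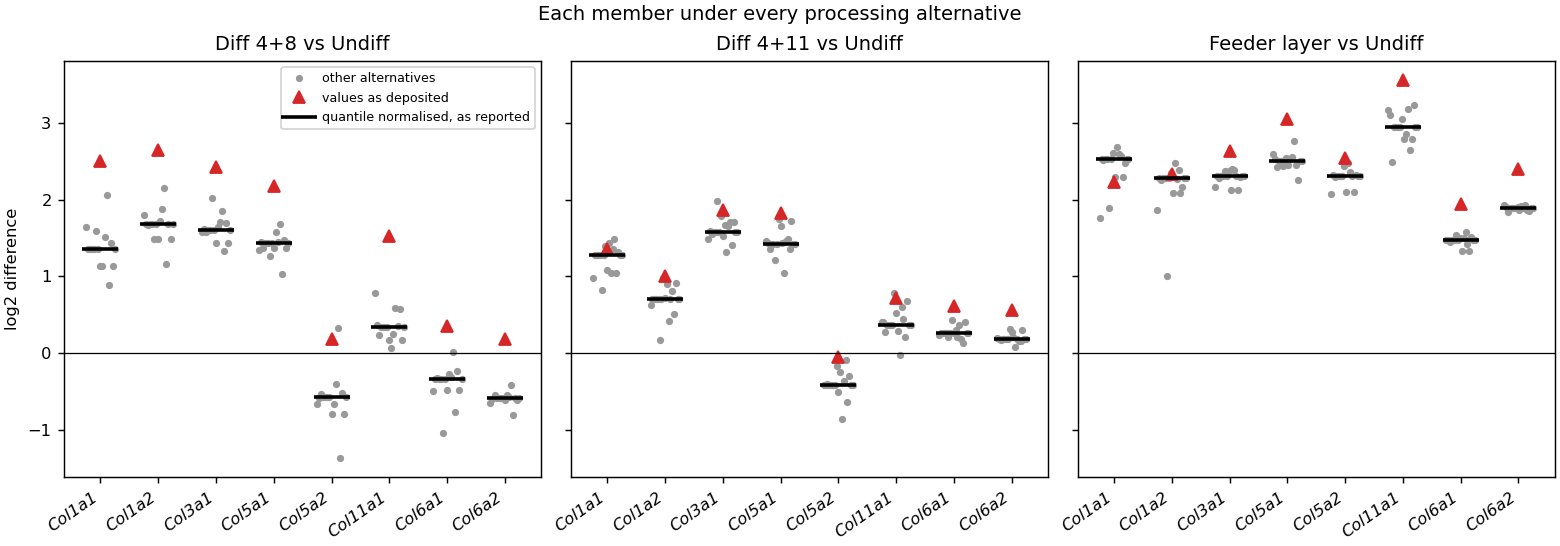
Log2 difference of each collagen gene from undifferentiated cells under every processing alternative; black bars are the reported values, grey points the other alternatives and red triangles the values as deposited without normalisation. At 4+8 days the triangles lie above the bars for all 8 genes, and for Col5a2, Col6a1 and Col6a2 they cross 0.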

How the data were processed

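The authors deposited linear intensities, one column per array, and the array software's experiment files gave the chip type, lot, washing protocol and scan of each array. The software and settings by which the authors summarised and scaled the probes are not given in the sources used here. The trimmed means of the arrays (2% cut at each end) differed by up to 2.32 times, and the 4+8 day arrays alone shared a target. The intensities deposited by the authors were therefore quantile normalised over all 11 arrays. Tests used log2(intensity + 8), with the 20th percentile of all intensities as the added 8, which understates folds of dim genes. After removal of 66 control probe sets, the 8940 probe sets that exceeded 33.4 (the 40th percentile) on 2 or more arrays were tested.

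The 6 comparisons came from a single limma fit (version 3.58.1, R 4.3.3, lmFit and eBayes, two-sided, residual degrees of freedom 7, prior degrees of freedom 3.0) with group as the only factor over all 11 arrays. Benjamini-Hochberg adjustment ran over all probe sets tested. The fit was tested on simulated data. A gene was represented by its brightest probe set over all arrays. Gene names come from the platform annotation, in which 10833 probe sets have 1 symbol, 396 several and 1193 none. Fluidics runs were told apart by gaps of over 60 minutes, and scan sessions by calendar day.

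The members and the gene lists were chosen with earlier results of these data known. Named beyond the members were, for each of 4 lists and each comparison, up to 3 called genes with the largest log2 difference, the defining cell type markers, and the 5 genes most correlated with the members' mean. Alternatives were other scalings, pseudocounts and filters, the mean of a gene's probe sets, the fit on 2 groups, the fluidics run as a block, an intensity trend, leaving out arrays and, added after seeing the data, leaving out the 4+8 day group. The number of arrays limits the precision.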

Additional observations from a re-analysis of the deposited data

Results flagged for a closer look

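Col6a2 differed between the differentiation times when the difference itself was tested. It was the 1 call among 8 genes, against 12.2% of all probe sets called higher and 10.8% lower. Against undifferentiated cells, Col6a2 was at -0.59 ± 0.22 at 4+8 days and at 0.18 ± 0.22 at 4+11 days, neither past the threshold. The direct comparison gave 0.77 ± 0.22 higher at 4+11 days (limma, adjusted p = 0.0328), with 549.7, 495 and 405 at 4+11 days above 259, 216 and 379.5 at 4+8 days. Over 16 alternatives the adjusted p ranged from 0.00738 to 0.345. The call was lost under 7 of them, and the difference kept its sign in each. The 4+8 day group and its scan session cannot be told apart.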

How the results depend on the processing

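No paired analysis was possible because the groups share fewer than 2 replicate numbers. Of 792 recomputed differences of single genes, 28 changed sign, none of them called in the reported fit, 47 lost and 33 gained a call. The cause of these changes was not tested. Where 1 feeder array was left out, the other was assumed to vary like the other groups. Called genes per comparison ranged over fits without 1 array as follows, beside the reported count: 1 to 5 for 4+8 days against undifferentiated cells (3), 1 to 2 for 4+11 days (2), 3 to 7 for feeder cells (7), 0 to 2 for 4+11 against 4+8 days (1), 2 to 6 for 4+8 days against feeder cells (4) and 0 to 2 for 4+11 days against feeder cells (2). In the same order, counts without the arrays of the other wash protocol were 1, 0, 4, 0 and, for 4+11 days against feeder cells, 1. Values as deposited gave 5 and an intensity trend 5 at 4+8 days against undifferentiated cells. The mean of a gene's probe sets gave 1 at 4+11 days and 3 between the times. The fluidics run as a block gave 4 at 4+11 days and 4 for 4+11 days against feeder cells. Fits on 2 groups gave 0 between the times, 2 for 4+8 days and 1 for 4+11 days against feeder cells, and leaving out the 4+8 day arrays gave 5 for the last.

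Signs turned as follows. As deposited, Col5a2, Col6a1 and Col6a2 became 0.18, 0.36 and 0.19 at 4+8 days against undifferentiated cells, Col5a2 and Col11a1 became -0.23 and -0.80 between the times, and Col1a1 and Col1a2 became 0.27 and 0.32 at 4+8 days against feeder cells. The medians of all probe sets moved to 0.99, -0.57 and 0.56 in these comparisons. Relative to them the values were -0.81, -0.63 and -0.80, 0.34 and -0.23, and -0.29 and -0.24. Col11a1 alone kept the turned sign, but relative to the median it was already at -0.02 in the reported fit. With trimmed-mean scaling, Col5a1 and Col11a1 became 0.12 and -0.38 between the times. Without the other wash protocol, Col3a1 and Col5a1 became 0.10 and 0.29 between the times. With the mean of its probe sets, Col1a2 became 0.49 at 4+8 days against feeder cells. Over fits without 1 array, Col5a2 ranged from -1.37 to 0.32 and Col6a1 from -0.76 to 0.022 at 4+8 days against undifferentiated cells, where 4+8 day replicate 2 turned both, and Col11a1 from -0.026 to 0.68 at 4+11 days. Between the times, Col1a1 ranged from -0.78 to 0.39, Col3a1 from -0.29 to 0.24, Col5a1 from -0.39 to 0.38, Col5a2 from -0.74 to 0.95 and Col11a1 from -0.36 to 0.34.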

Other observations

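Among 15 tested collagens that are not members, 7 were called higher and 1 lower at 4+8 days than in undifferentiated cells, against 17.2% and 19.9% of all probe sets, 3 and 0 at 4+11 days, against 9.22% and 9.44%, and 4 and 0 in feeder cells, against 10% and 10.3%. Chains of type IV, the network-forming collagen of basement membranes, were called higher in each of these groups. Col4a1 read 411 ± 71.2 in undifferentiated cells, 1385 ± 137 at 4+8 days, 1608 ± 226 at 4+11 days (n = 3 each) and 1654 ± 59.9 in feeder cells (n = 2). Its differences were 1.74 ± 0.19 (adjusted p = 0.000218), 1.95 ± 0.19 (adjusted p = 0.000297) and 2.0 ± 0.22 (adjusted p = 0.000502), and its arrays did not overlap those of undifferentiated cells. Col4a2, the partner of Col4a1 in the most widespread type IV molecule, was higher by 1.46 ± 0.19 at 4+11 days and 1.77 ± 0.21 in feeder cells. Col4a5 was higher by 2.22 ± 0.41 at 4+8 days and 2.14 ± 0.41 at 4+11 days, from 17.6 ± 5.53 in undifferentiated cells. Col26a1 was higher by 1.80 ± 0.37 at 4+8 days. Col8a1, a short-chain collagen, stood out in feeder cells, at 676 ± 31.6 against 72 ± 29.6 in undifferentiated cells (3.16 ± 0.40, adjusted p = 0.00106), and was lower than there by -3.95 ± 0.40 at 4+8 days and -3.22 ± 0.40 at 4+11 days.

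Chains of type IX, a collagen that decorates type II fibrils in cartilage, read highest at 4+8 days. Col9a1 read 211 ± 83.3 there and 51.3 ± 23.8 at 4+11 days (-1.91 ± 0.39, adjusted p = 0.00923), and against feeder cells it was higher at 4+8 days by 1.90 ± 0.44 (adjusted p = 0.0115). Col9a2 read 255 ± 42.0 and 73.6 ± 9.66 (-1.68 ± 0.25, adjusted p = 0.00292), without overlap of arrays. Col2a1 read at most 29.4 on these arrays, below the filter level. Col15a1 was the single other collagen called higher at 4+11 than at 4+8 days, by 2.32 ± 0.44 (adjusted p = 0.00630). Col6a3, another chain of type VI, was lower than in feeder cells by -2.45 ± 0.72 at 4+8 days (adjusted p = 0.0300). Col7a1 was lower than in feeder cells by -1.28 ± 0.21 at 4+11 days (adjusted p = 0.0103).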
